A study of Rattus norvegicus with 30 samples.

Results

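The 10 genes described here are Nfe2l2, which encodes the transcription factor NRF2, Keap1, which encodes its repressor, and 8 antioxidant genes: Gclc, Gclm, Nqo1, Hmox1, Txnrd1, Srxn1, Sod1 and Sod2. They were taken as the probe sets whose only gene symbol in the platform annotation is one of these names. That gave 15 probe sets, of which 14 passed a signal filter, and all 10 genes were among the 11545 genes tested. The rule that picks the probe sets uses names and no signal, and the genes were chosen with earlier results of these data known.

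The cells were hepatocytes of male Sprague Dawley rats, bought frozen, plated on collagen under a Matrigel overlay and dosed on day 3 of culture with WY-14643 (pirinixic acid), which activates the nuclear receptor PPARα. RNA of single wells was hybridised to an Affymetrix rat array, 1 array a well. The 30 arrays form 6 groups of 5: vehicle, 8 µM and 200 µM at 24 h, and vehicle, 8 µM and 200 µM at 48 h. The vehicle wells are labelled 1% DMSO. For treated wells the labels describe only the DMSO of the dosing stocks, so the amount that reached the medium is not known here. The labels call the 5 wells of a group separate biological replicates without saying whether they came from different animals, so errors and p-values measure the spread between wells. Both doses of a time are compared with the same 5 vehicle wells, and their results are not independent of each other.

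NRF2 is kept low in unstressed cells because KEAP1, an adaptor of a CUL3 ubiquitin ligase, binds it and sends it to the proteasome. Oxidants and electrophiles modify cysteines of KEAP1, and NRF2 then accumulates, pairs with small MAF proteins and binds antioxidant response elements near genes for glutathione synthesis, the thioredoxin system, quinone reduction and heme breakdown. In rodent liver PPARα agonists raise peroxisomal fatty acid oxidation, a source of hydrogen peroxide. NRF2 itself is regulated mainly at the protein level, which an array does not measure.

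The 250 bases before and 50 bases after the annotated starts were searched on both strands for a core of the antioxidant response element, TGACNNNGC, to show where such letters lie near these genes. The RefSeq table (build GRCr8) held windows for 9 of the 10 genes, 10 windows in all, and none for Hmox1. The core was found in windows of 4 of the 9 genes, and in 12.1% of all 33469 windows of the table. In the Nfe2l2 window it lies after the start, at bases 39 to 47. The 3 matches that lie before the start are shown within 100 bases of their promoter, with the match in capitals, because 1 belongs to a gene that rose at 48 h (Gclm), 1 to a gene that rose in every treated group (Sod2) and 1 to a gene whose brighter probe set passed the test nowhere (Txnrd1).
Gclm: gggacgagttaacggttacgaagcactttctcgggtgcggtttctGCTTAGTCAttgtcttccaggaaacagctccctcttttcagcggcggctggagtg
Txnrd1: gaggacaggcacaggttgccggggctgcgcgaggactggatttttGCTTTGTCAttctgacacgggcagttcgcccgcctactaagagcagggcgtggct
Sod2: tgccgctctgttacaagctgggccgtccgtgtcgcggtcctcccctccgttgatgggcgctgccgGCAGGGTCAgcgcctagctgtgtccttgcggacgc
Each is written 5′ to 3′ on the strand of its gene. The Gclm stretch is chr2:213031918-213032017 on the plus strand and its match spans bases -172 to -164 relative to the start. The Txnrd1 stretch is chr7:22755928-22756027 on the minus strand, with the match at bases -78 to -70. For Sod2 the stretch is chr1:50050169-50050268 on the minus strand, with the match at bases -35 to -27. All 3 matches read as the core on the opposite strand. Another form of the element with more fixed letters, TGANTCAGC, was searched after the Srxn1 window had been seen; it occurs there across the start, from 5 bases before it, and in 1.11% of all windows. A match describes letters only and is no evidence of binding.

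Signals are the authors' linear array signals. Tests used log2(signal + 16) in 1 limma fit of all 30 arrays, adjusted by Benjamini-Hochberg over the 11545 genes, and the words rose, fell and changed mark an adjusted p below 0.05. Changes are log2 fold changes with their standard error from that fit (n = 5 wells a group), and a gene with several probe sets is represented by the brightest. The array of 48 h vehicle replicate 4 stood apart from the other 29. Its median signal was 765, against 385 to 439 on the others, and its correlation with the arrays of its group, over genes, had a median of 0.896, against 0.973 to 0.980. It enters the spread behind every test. Member results and 48 h list counts that turn on it are given with and without it, which was decided once the data had been seen. Some 24 h list counts also rose without it, and below they are given with it only. For example, the further NRF2 targets at 8 µM had 5 rises and 6 falls in place of 3 and 5. The other antioxidant list at 200 µM had 8 and 8 in place of 6 and 6. The 24 h counts of the oxidases did not change. The summed signal of 5 hepatocyte markers had group medians between 293053 and 381359, which describes the cells and does not test their label. Of these markers Fgb and Serpina1 fell at both doses at 48 h, and Fgb also at 8 µM and 24 h. Alb, Ttr and Apoa1 passed in no treated group. The cells responded to the agonist: Acot1, a peroxisome proliferator target that encodes an acyl-CoA thioesterase, rose by 7.73 to 8.69 on the log2 scale across the 4 treated groups.

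**Figure D1:**
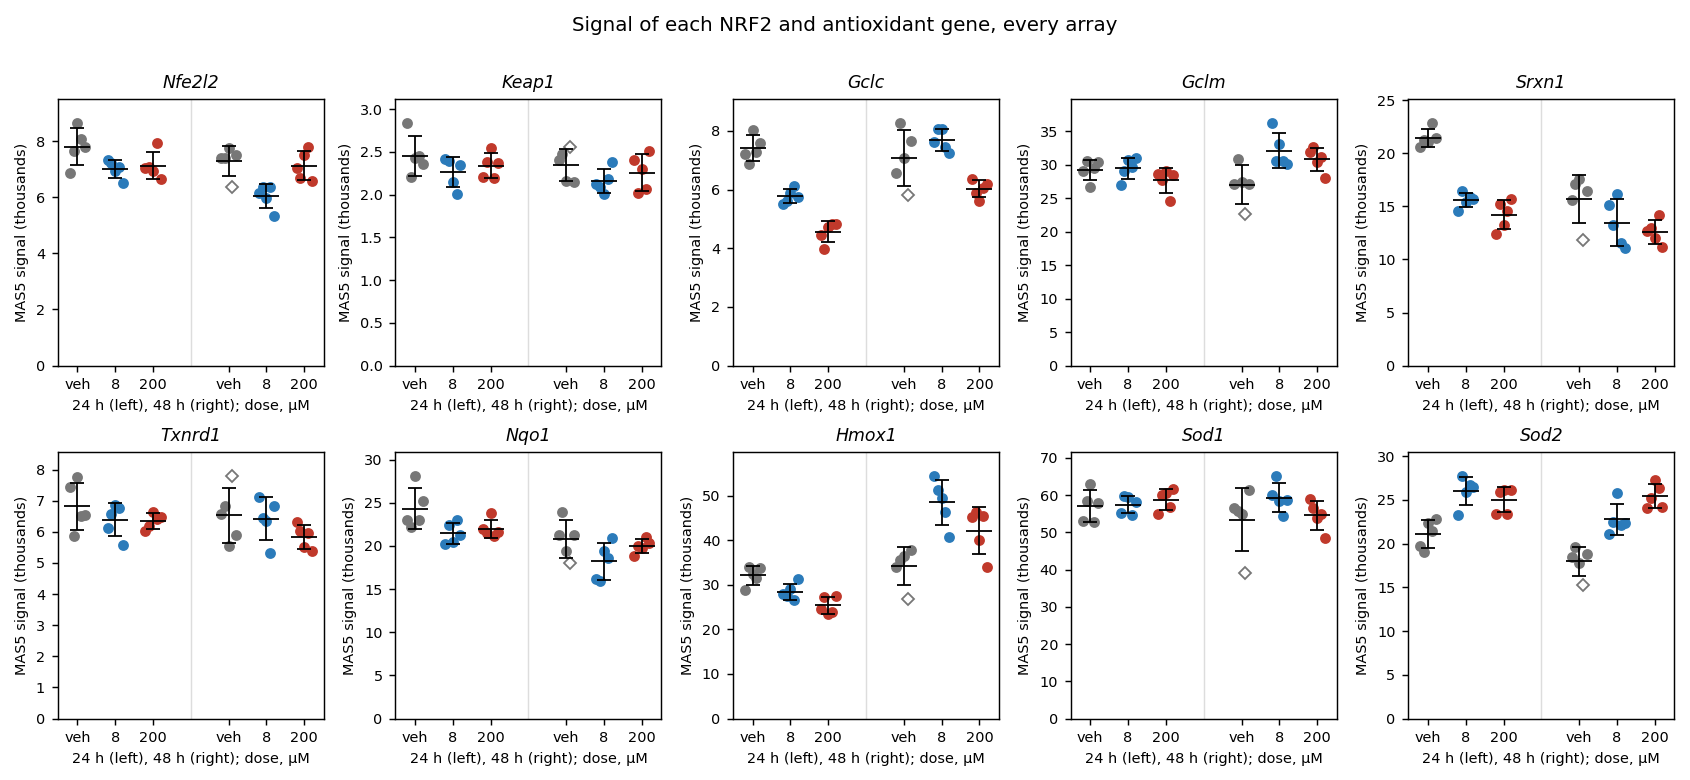
Signal of each of the 10 genes (linear scale, vertical axis from 0) in every well, by dose within 24 h and 48 h; points are wells, horizontal bars are group means with SD (n = 5), and the open grey diamond is 48 h vehicle replicate 4. Gclc is lowest in 200 µM wells at 24 h, Hmox1 is highest in 8 µM wells at 48 h, and Sod2 lies above its vehicle wells in all 4 treated groups.

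Nfe2l2 transcripts changed little. Nfe2l2 fell in 1 of the 4 treated groups, 8 µM at 48 h, and its dose difference at 48 h ran the other way. Nfe2l2 signals at 24 h were 6847, 7648, 8625, 8089 and 7782 in vehicle wells, 7307, 7229.5, 6915, 7063 and 6509.7 in 8 µM wells and 7052, 7064, 6919.5, 7940.5 and 6650.0 in 200 µM wells. At 48 h they were 7392, 7409.5, 7742, 6352 and 7499 in vehicle wells, 6158, 6367, 5959, 6352 and 5341 in 8 µM wells and 7031, 6680.4, 7511, 7779.7 and 6584 in 200 µM wells. The ranges overlapped at 24 h for both doses. At 48 h all 8 µM wells lay below the 200 µM wells, and the single vehicle well inside the 8 µM range was replicate 4. The change at 48 h was -0.27 ± 0.07 (adjusted p = 0.0015) for 8 µM and -0.03 ± 0.07 (adjusted p = 0.76) for 200 µM. At 24 h it was -0.15 ± 0.07 (adjusted p = 0.098) for 8 µM and -0.13 ± 0.07 (adjusted p = 0.17) for 200 µM, neither of which passed. Nfe2l2 was higher at 200 µM than at 8 µM at 48 h by 0.24 ± 0.07 (adjusted p = 0.03). That call was lost without 8 µM replicate 3 or 5 or 200 µM replicate 3 or 4 of 48 h (values 0.19 to 0.23, adjusted p 0.06 to 0.11). With each array centred on its median, neither call held (adjusted p = 0.44 for 8 µM against vehicle and 0.57 for the dose difference). The fall at 24 h with 8 µM passed without 24 h vehicle replicate 1, at -0.20 (adjusted p = 0.03).

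Keap1 passed the test in none of the 9 contrasts. Its brighter probe set read 2003 to 2832 over all 30 wells, and the group means ran from 2157 ± 141 (SD) in 8 µM wells at 48 h to 2455 ± 232 in vehicle wells at 24 h, with overlapping ranges between all neighbours in that order. The changes against vehicle were -0.12 ± 0.08 for 8 µM and -0.07 ± 0.08 for 200 µM at 24 h, and -0.12 ± 0.08 and -0.06 ± 0.08 at 48 h for the same doses. The 95% intervals of these differences reached from -0.28 at the low end to 0.10 at the high end. The dimmer Keap1 probe set read 281 to 551, near the filter of 281, and its changes against vehicle lay between -0.18 and -0.01, none of which passed.

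Gclc, the catalytic subunit of glutamate-cysteine ligase and the rate-limiting step of glutathione synthesis, had the largest fall of the 10 genes. It fell with dose at 24 h, and at 48 h it fell at 200 µM only, by less. Gclc signals in 24 h vehicle wells were 7219, 6888, 8043, 7292 and 7601. The 8 µM wells of that time read 5525, 5601, 5899, 6107 and 5744. The 200 µM wells read 4462, 3969.6, 4708, 4839 and 4818. The 3 groups did not overlap at 24 h, each higher dose lying wholly below the one before it. At 48 h the vehicle wells read 6567, 8255, 7082, 5802 and 7651. In 8 µM wells the Gclc signals were 7628, 8066, 8081, 7449 and 7251. In 200 µM wells they were 6365, 5877, 5619, 6069.7 and 6202. The 8 µM wells of 48 h lay within the vehicle range, and the 200 µM wells lay in its lower part with 1 well below it. Group means at 48 h were 7071 ± 949 for vehicle, 7695 ± 371 for 8 µM and 6027 ± 289 for 200 µM (SD, n = 5).

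The Gclc change against vehicle at 24 h was -0.36 ± 0.07 (adjusted p = 1.6e-04) at 8 µM and -0.70 ± 0.07 (adjusted p = 1.1e-09) at 200 µM. At 48 h it was 0.13 ± 0.07 (adjusted p = 0.15) at 8 µM, which did not pass, and -0.22 ± 0.07 (adjusted p = 0.014) at 200 µM. Gclc was lower at 200 µM than at 8 µM at both times: -0.34 ± 0.07 (adjusted p = 0.0028) at 24 h and -0.35 ± 0.07 (adjusted p = 0.0015) at 48 h. The change of the effect between times, 48 h minus 24 h, was 0.49 ± 0.10 (adjusted p = 0.0032) at 8 µM and 0.48 ± 0.10 (adjusted p = 0.0047) at 200 µM. On the dimmer probe set it was 0.47 ± 0.18 (adjusted p = 0.25) at 8 µM and 0.42 ± 0.18 (adjusted p = 0.36) at 200 µM, and neither passed. With the probe sets averaged the 200 µM value was 0.45 (adjusted p = 0.052), which did not pass. The dimmer Gclc probe set was lower at 200 µM than at 8 µM at both times without passing, and against vehicle 1 of its 4 values passed: -0.29 ± 0.13 (adjusted p = 0.13) at 8 µM and -0.59 ± 0.13 (adjusted p = 8.6e-04) at 200 µM at 24 h, and 0.18 ± 0.13 (adjusted p = 0.32) and -0.18 ± 0.13 (adjusted p = 0.34) for the same doses at 48 h. The 48 h fall at 200 µM was not called without 48 h vehicle replicate 2, the well with the highest Gclc signal of its group, at -0.16 (adjusted p = 0.069). Without that well the 48 h value at 8 µM passed as a rise, at 0.19 (adjusted p = 0.032), while without 48 h vehicle replicate 4 it was 0.06 (adjusted p = 0.49). With median centring the 24 h fall at 200 µM remained called, while the values that lost their call were -0.32 (adjusted p = 0.07) at 8 µM and 24 h and -0.10 (adjusted p = 0.62) at 200 µM and 48 h. The dose difference was then -0.35 (adjusted p = 0.29) at 24 h and -0.37 (adjusted p = 0.18) at 48 h, and the change between times 0.60 (adjusted p = 0.11) at 8 µM and 0.58 (adjusted p = 0.16) at 200 µM. These 4 values were at least as large as with the deposited scaling, and their standard errors were larger, 0.12 for the dose differences and 0.17 for the changes between times.

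Gclm, the modifier subunit of the same enzyme, passed at neither dose at 24 h and rose at 48 h. Gclm signals at 24 h were 29056, 30519.7, 26608, 29466 and 30312 in vehicle wells, 26977, 29006, 30630.0, 29634 and 31001 in 8 µM wells and 28582, 27656, 29105, 24501 and 28512 in 200 µM wells. The 48 h signals were 27119, 30818, 27448, 22671 and 27063 in vehicle wells, 36138, 30519, 33095, 30592 and 30113 in 8 µM wells and 31811, 32590.0, 30437, 31093 and 27978 in 200 µM wells. The groups overlapped at both times. At 48 h the lowest of all 15 wells was vehicle replicate 4, and vehicle replicate 2 lay inside the range of both doses. The change at 48 h was 0.25 ± 0.07 (adjusted p = 0.0037) at 8 µM and 0.19 ± 0.07 (adjusted p = 0.027) at 200 µM. At 24 h it was 0.01 ± 0.07 (adjusted p = 0.93) at 8 µM and -0.08 ± 0.07 (adjusted p = 0.48) at 200 µM. Without 48 h vehicle replicate 4 the 200 µM value was 0.13 (adjusted p = 0.084), and it also lost the call without 200 µM replicate 1 (0.18 (adjusted p = 0.061)), replicate 2 (0.17 (adjusted p = 0.073)) or replicate 4 (0.19 (adjusted p = 0.05)). Quantile normalization gave the 200 µM value as 0.09 (adjusted p = 0.18), and the call was also lost with median centring at 0.32 (adjusted p = 0.051), with array weights at 0.14 (adjusted p = 0.05) and with only the arrays compared at 0.19 (adjusted p = 0.09). In all 9 of the 41 alternatives ended it. The rise at 8 µM passed under every alternative tried. The change of the Gclm effect between times did not pass at either dose (adjusted p = 0.22 at 8 µM and 0.16 at 200 µM).

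Srxn1 encodes sulfiredoxin, which restores peroxiredoxins that peroxide has overoxidised. On the brightest probe set Srxn1 fell at both doses at 24 h and at 200 µM at 48 h. The change of its effect between times did not pass at either dose. Srxn1 also fell in vehicle wells with time. Srxn1 signals in 24 h vehicle wells were 20632, 21228, 21049, 22817 and 21459. The 8 µM wells read 14607, 16450.2, 15382, 15907 and 15656. The 200 µM wells read 12382, 15266, 13253, 14522 and 15672. All 10 treated wells of 24 h lay below all 5 vehicle wells, and the doses overlapped each other. Vehicle wells of 48 h read 15596, 17151, 17536, 11811 and 16410.1. In 8 µM wells Srxn1 read 15133, 13281, 16179, 11586 and 11092. In 200 µM wells it read 12708, 12954, 11978, 14193 and 11129. At 48 h vehicle replicate 4 lay within the range of both doses, and the other vehicle wells lay above all 200 µM wells. The change against vehicle at 24 h was -0.46 ± 0.09 (adjusted p = 2.8e-04) at 8 µM and -0.60 ± 0.09 (adjusted p = 6.8e-06) at 200 µM. At 48 h it was -0.22 ± 0.09 (adjusted p = 0.063) at 8 µM and -0.31 ± 0.09 (adjusted p = 0.01) at 200 µM. Without vehicle replicate 4 the 48 h value at 8 µM passed, at -0.32 (adjusted p = 0.0022). It also passed without 8 µM replicate 1 (-0.27 (adjusted p = 0.033)) or replicate 3 (-0.29 (adjusted p = 0.015)) of 48 h. Median centring ended the 48 h call at 200 µM (adjusted p = 0.39). With quantile normalization the 48 h value at 8 µM passed, at -0.35 (adjusted p = 4.3e-04).

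A second Srxn1 probe set passed in all 4 treated groups. At 24 h it read 5300.2, 5333, 4650.2, 5289 and 5250.1 in vehicle wells, 2970.1, 3441, 2934, 3390.2 and 3275 in 8 µM wells and 3287, 3351, 3058, 3469 and 3708 in 200 µM wells. At 48 h it read 3815, 4759, 4466, 3895 and 4643 in vehicle wells, 2994, 2739.6, 2924, 2665 and 2461 in 8 µM wells and 2722, 3067, 2681, 2918 and 2589.9 in 200 µM wells. Its treated wells lay below all vehicle wells of their time at both doses. Its change was -0.69 ± 0.07 (adjusted p = 4.0e-09) at 8 µM and -0.61 ± 0.07 (adjusted p = 5.4e-08) at 200 µM at 24 h, and -0.64 ± 0.07 (adjusted p = 1.3e-08) and -0.62 ± 0.07 (adjusted p = 3.0e-08) for the same doses at 48 h, adjusted over all probe sets kept. The 2 probe sets thus gave different sizes at 48 h, and at 8 µM and 24 h. For the second, the effect at 48 h minus that at 24 h was 0.05 at 8 µM and -0.008 at 200 µM. Neither passed. The third Srxn1 probe set read 17.2 to 267, below the filter, and was not tested.

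Txnrd1, the cytosolic thioredoxin reductase, passed in none of the 9 contrasts on its brighter probe set. That probe set read 5317 to 7781 over the 30 wells, with group means of 6814 ± 768 in vehicle wells, 6386 ± 529 in 8 µM wells and 6346 ± 244 in 200 µM wells at 24 h (SD, n = 5). At 48 h the means were 6527 ± 874 in vehicle wells, 6416 ± 689 in 8 µM wells and 5837 ± 385 in 200 µM wells. The largest difference from vehicle was -0.15 ± 0.08 at 200 µM and 48 h, with a 95% interval of -0.32 to 0.02 (adjusted p = 0.17). The dimmer Txnrd1 probe set fell at 8 µM and 48 h, with a change of -0.27 ± 0.10 (adjusted p = 0.039), and its other changes against vehicle did not pass, so the probe sets disagree there.

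Nqo1, a quinone reductase widely used as a readout of NRF2, did not rise in any treated group. Nqo1 signals at 24 h were 23052, 22215, 28065, 23057 and 25175 in vehicle wells, 20282, 22392, 20481, 22995 and 21217 in 8 µM wells and 21914, 21527, 23819.9, 21204 and 21589 in 200 µM wells. The 48 h signals were 21249, 23898, 19390.5, 18048 and 21274 in vehicle wells, 16216, 15922, 19400.5, 18655 and 20950.3 in 8 µM wells and 18879, 19973, 19814, 21075 and 20339 in 200 µM wells. All groups overlapped at both times, and vehicle replicate 4 was the lowest vehicle well of 48 h. The change at 24 h was -0.18 ± 0.07 (adjusted p = 0.084) at 8 µM and -0.14 ± 0.07 (adjusted p = 0.19) at 200 µM. At 48 h it was -0.19 ± 0.07 (adjusted p = 0.044) at 8 µM, a fall, and -0.05 ± 0.07 (adjusted p = 0.67) at 200 µM. The upper ends of the 4 intervals lay between -0.04 and 0.10. The 48 h call at 8 µM was lost without any 1 of vehicle replicates 1, 2 and 5 or 8 µM replicates 1, 2 and 4 (values -0.20 to -0.14, adjusted p 0.051 to 0.15) and with median centring (adjusted p = 0.82). Without 48 h vehicle replicate 4, whose only part in the 24 h comparison is the shared spread, the 24 h value at 8 µM passed (adjusted p = 0.043). It also passed with quantile normalization, at -0.19 (adjusted p = 0.032).

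Hmox1, the inducible heme oxygenase that breaks heme down to biliverdin, iron and carbon monoxide, changed direction with time. It fell at 200 µM at 24 h and rose at both doses at 48 h. Hmox1 signals in 24 h vehicle wells were 28930.5, 34000.1, 32343, 31532 and 33853. The 8 µM wells read 27976, 27426, 29039.9, 26597 and 31303. The 200 µM wells read 24655, 27272, 23359, 24005 and 27594. At 24 h all 200 µM wells lay below all vehicle wells, and the 8 µM wells overlapped both other groups. Vehicle wells of 48 h read 33907, 35661, 36562, 26899 and 37776. In 8 µM wells Hmox1 read 54312, 51308, 49476, 46379.6 and 40813. In 200 µM wells it read 45139, 46330.1, 40029, 45438 and 33916. At 48 h all 8 µM wells lay above all vehicle wells, and 4 of the 5 wells at 200 µM did.

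The Hmox1 change at 24 h was -0.17 ± 0.09 (adjusted p = 0.16) at 8 µM and -0.34 ± 0.09 (adjusted p = 0.0034) at 200 µM. At 48 h it was 0.51 ± 0.09 (adjusted p = 1.9e-05) at 8 µM and 0.30 ± 0.09 (adjusted p = 0.0068) at 200 µM, and both 48 h rises passed under every alternative tried. The dose difference, 200 µM against 8 µM, did not pass at 24 h (-0.17 ± 0.09 (adjusted p = 0.45)) or at 48 h (-0.20 ± 0.09 (adjusted p = 0.24)). The change of the effect, 48 h minus 24 h, was 0.68 ± 0.12 (adjusted p = 8.9e-04) at 8 µM and 0.65 ± 0.12 (adjusted p = 0.0021) at 200 µM. With median centring the 24 h fall was -0.31 (adjusted p = 0.14) and the change between times 0.79 (adjusted p = 0.052) at 8 µM and 0.74 (adjusted p = 0.089) at 200 µM, none of which passed. The changes between times were larger than with the deposited scaling, with a standard error of 0.20. With quantile normalization the 24 h value at 8 µM passed, at -0.22 (adjusted p = 0.0039). Kupffer cells, the macrophages of the liver, also make Hmox1. Of 6 Kupffer cell markers 5 had a probe set and 4 passed the filter (Marco had no probe set of its own in the annotation and Ptprc was below the filter), and their summed signal had a group median of 4185 in vehicle wells, 3815 in 8 µM wells and 3442 in 200 µM wells at 24 h. At 48 h the medians were 2998 in vehicle wells, 3312 in 8 µM wells and 2272 in 200 µM wells. Among these markers Cd68 fell at 200 µM and 24 h, with a change of -0.44 (adjusted p = 0.028) and rose at 8 µM and 48 h by 0.42 (adjusted p = 0.029), as Hmox1 did, and had -0.22 at 8 µM and 24 h and -0.18 at 200 µM and 48 h. The other 3 tested markers, Cd163, Clec4f and C1qa, had 1 change that passed, a fall of C1qa at 200 µM and 48 h, with a change of -0.59 (adjusted p = 5.9e-04). Ranges of the summed signal were 3352 to 3673 in 200 µM wells and 3742 to 4791 in vehicle wells at 24 h, and 2412 to 3944 in vehicle wells, 3024 to 3558 in 8 µM wells and 2028 to 2472 in 200 µM wells at 48 h. The part of these markers in the Hmox1 result was not tested, and in bulk RNA fewer cells of a type and less RNA per cell cannot be told apart. The ratio of 3′ to 5′ signal of β-actin, a sign of RNA length and labelling, also moved with the groups: its medians were 2.89 in vehicle wells, 3.11 in 8 µM wells and 3.39 in 200 µM wells at 24 h, and 2.51, 3.20 and 3.01 for vehicle, 8 µM and 200 µM at 48 h. Its part in any result here was not tested.

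Sod2, the manganese superoxide dismutase of mitochondria, was the member that rose in all 4 treated groups. Sod2 signals in 24 h vehicle wells were 19696, 19094, 22364, 21447 and 22840.1. The 8 µM wells read 23307, 27694, 25887, 26736 and 26459.8. The 200 µM wells read 23423, 25951, 26103, 23445 and 26103. At 24 h all 10 treated wells lay above all vehicle wells. Vehicle wells of 48 h read 18511, 19603, 17805, 15291 and 18836. In 8 µM wells Sod2 read 21052, 22503, 25813, 22103 and 22409. In 200 µM wells it read 24058, 25191, 27275, 26319 and 24250.1. The treated wells of 48 h again lay above all vehicle wells, and the doses overlapped. The change at 24 h was 0.30 ± 0.07 (adjusted p = 6.7e-04) at 8 µM and 0.25 ± 0.07 (adjusted p = 0.0054) at 200 µM. At 48 h it was 0.34 ± 0.07 (adjusted p = 1.2e-04) at 8 µM and 0.50 ± 0.07 (adjusted p = 3.0e-07) at 200 µM, which both passed under every alternative tried. With median centring the 24 h values were 0.34 (adjusted p = 0.054) at 8 µM and 0.27 (adjusted p = 0.13) at 200 µM, larger in size but not called. The dose difference did not pass at 48 h, at 0.16 ± 0.07 (adjusted p = 0.21), nor did the change of the effect between times (adjusted p = 0.91 at 8 µM and 0.19 at 200 µM). With quantile normalization the 48 h dose difference passed, at 0.19 (adjusted p = 0.0087).

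Sod1, the copper and zinc superoxide dismutase of the cytosol, passed in none of the 9 contrasts. It read 38953 to 65015 over the 30 wells, and the lowest value was that of 48 h vehicle replicate 4. Group means at 24 h were 56988 ± 4243 in vehicle wells, 57445 ± 2371 in 8 µM wells and 58805 ± 2742 in 200 µM wells (SD, n = 5). At 48 h they were 53432 ± 8477 in vehicle wells, 59311 ± 3803 in 8 µM wells and 54525 ± 3881 in 200 µM wells. The largest difference from vehicle was 0.16 ± 0.08 (adjusted p = 0.12) at 8 µM and 48 h. It had a 95% interval of -0.00094 to 0.33, and it was 0.06 without 48 h vehicle replicate 4 and 0.22 (adjusted p = 0.036) without vehicle replicate 5. Quantile normalization gave it 0.10 (adjusted p = 0.0015), and gave 0.07 (adjusted p = 0.028) at 200 µM and 24 h.

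At 8 µM and 24 h, 1 member rose (Sod2) and 2 fell (Gclc, Srxn1) of 10 tested, while 11.1% of all genes rose and 13.8% fell. At 200 µM and 24 h, 1 member rose (Sod2) and 3 fell (Gclc, Hmox1, Srxn1), while 11.6% of all genes rose and 13.1% fell. At 8 µM and 48 h, 3 members rose (Gclm, Hmox1, Sod2) and 2 fell (Nfe2l2, Nqo1), against 16.7% of all genes that rose and 18.9% that fell. At 200 µM and 48 h the same 3 rose and 2 fell (Gclc, Srxn1), against 16.8% and 17.1% of all genes. The median change of the 10 members was -0.13 at 8 µM and -0.11 at 200 µM at 24 h, and 0.05 and -0.04 at 48 h for the same doses, while the medians over all genes were -0.03 and -0.02 at 24 h and -0.06 and -0.05 at 48 h. Centring each array on its median moved the all-gene medians at 48 h by 0.14 at 8 µM and 0.13 at 200 µM and left 3 rises and 0 falls among the members at 8 µM and 2 rises and 0 falls at 200 µM. At 24 h it left 0 rises and 1 fall at 8 µM and 0 rises and 2 falls at 200 µM. The share of rises among all calls of 48 h was then 67.2% at 8 µM and 68.3% at 200 µM, against 46.9% and 49.6% as deposited. Median centring was not run without 48 h vehicle replicate 4, whose median signal stood apart. No called member change reversed its sign under any alternative.

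**Figure D2:**
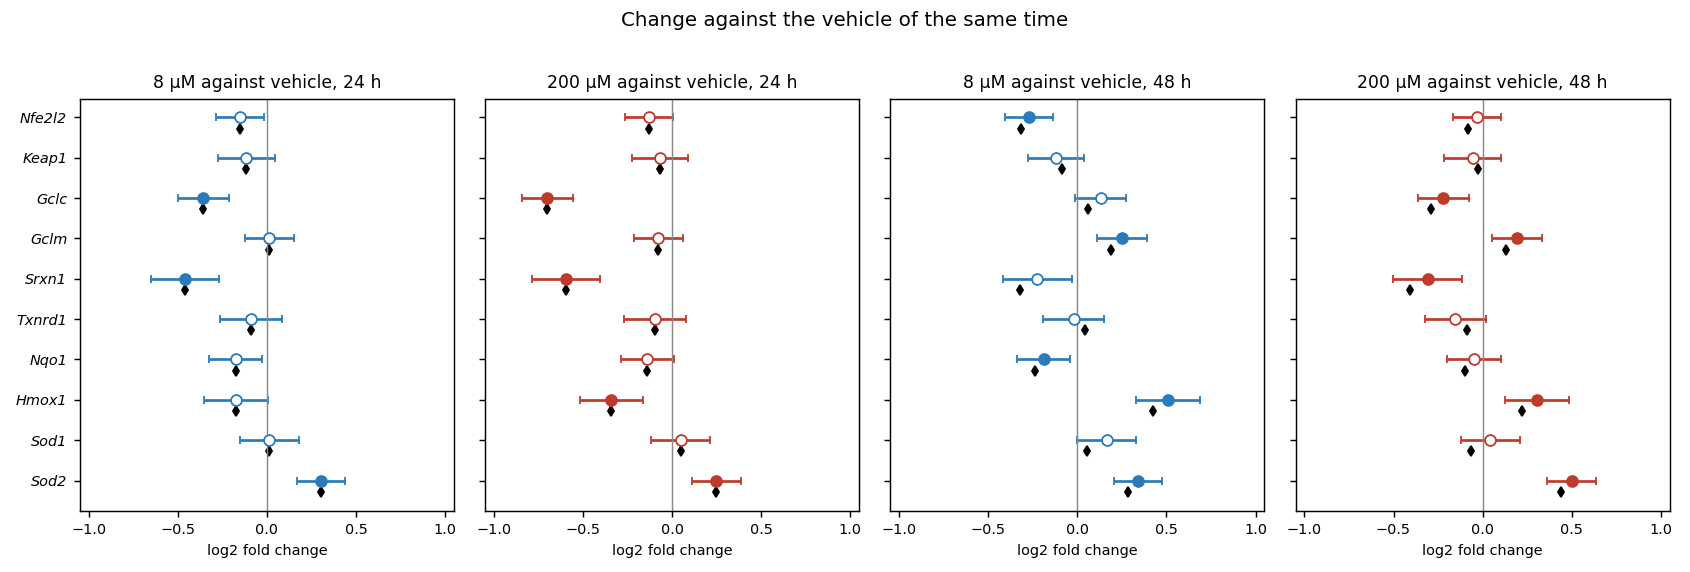
Log2 fold change against the vehicle of the same time for each of the 10 genes (horizontal position) at 8 µM and 200 µM, at 24 h and 48 h. Bars are 95% intervals from the limma fit, filled points have an adjusted p below 0.05, and small black diamonds give the value without 48 h vehicle replicate 4. Gclc and Srxn1 lie left of 0 at 24 h, Hmox1 lies on opposite sides at the 2 times, and Sod2 lies right of 0 in all 4 groups.

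The 2 doses differed for few members. At 24 h 1 member changed between 200 µM and 8 µM (Gclc, lower at 200 µM), while 3.02% of all genes changed in either direction. At 48 h 2 members changed (Gclc lower and Nfe2l2 higher at 200 µM), against 4.79% of all genes. Without 48 h vehicle replicate 4 the all-gene counts were 676 in place of 349 at 24 h and 1037 in place of 553 at 48 h, and the member counts were 1 and 2 as before. The 48 h member count was 1 without 8 µM replicate 3 or 5 or 200 µM replicate 3 or 4.

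In vehicle wells 3 members fell between 24 h and 48 h and none rose, while 9.87% of all genes changed in either direction. Srxn1 fell, with a change of -0.46 ± 0.09 (adjusted p = 0.0011), with all 5 wells of 48 h below all 5 wells of 24 h, and this passed under every alternative tried. The second Srxn1 probe set fell by less, with a change of -0.26 ± 0.07 (adjusted p = 0.023, over all probe sets kept). Its vehicle wells overlapped between times. Nqo1 (-0.23 ± 0.07 (adjusted p = 0.044)) and Sod2 (-0.23 ± 0.07 (adjusted p = 0.025)) passed narrowly. Without 48 h vehicle replicate 4 they were -0.18 (adjusted p = 0.11) for Nqo1 and -0.17 (adjusted p = 0.062) for Sod2, so that 1 member remained. Without 24 h vehicle replicate 3 they were -0.18 (adjusted p = 0.17) for Nqo1 and -0.21 (adjusted p = 0.076) for Sod2, and without 24 h vehicle replicate 5 -0.21 (adjusted p = 0.1) and -0.20 (adjusted p = 0.085). Sod2 was also lost without 24 h vehicle replicate 4 (-0.22 (adjusted p = 0.051)). Nqo1 was lost without either of 48 h vehicle replicates 1 and 3 as well (-0.24 (adjusted p = 0.055) and -0.21 (adjusted p = 0.1)), and its adjusted p crossed 0.05 when several single treated wells that share the spread were left out. With median centring the values were -0.34 (adjusted p = 0.11) for Nqo1 and -0.34 (adjusted p = 0.1) for Sod2, larger in size but not called. With quantile normalization they were -0.12 (adjusted p = 0.31) for Nqo1 and -0.10 (adjusted p = 0.21) for Sod2, and Hmox1 passed as a rise at 0.19 (adjusted p = 0.027), so that 1 member rose and 1 fell. The share of rises among all calls in vehicle wells over time was 29.3% with median centring, against 45.2% as deposited. With the deposited scaling Gclc and Hmox1 did not pass in vehicle wells over time, at -0.08 ± 0.07 (adjusted p = 0.56) for Gclc and 0.08 ± 0.09 (adjusted p = 0.63) for Hmox1.

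The effect of the compound changed between 24 h and 48 h at both doses for Hmox1 and, on its brighter probe set only, for Gclc. That is 2 of 10 members, while 2.9% of all genes changed at 8 µM and 2.41% at 200 µM. The 4 values, given above, were positive, and without 48 h vehicle replicate 4 they were 0.42 and 0.41 for Gclc at 8 µM and 200 µM, and 0.60 and 0.56 for Hmox1. The all-gene counts without that array were 582 in place of 335 at 8 µM and 488 in place of 278 at 200 µM. The share of rises among all calls at 8 µM was 69.9% with median centring, against 57.6% as deposited. Srxn1 did not pass, at 0.23 ± 0.13 (adjusted p = 0.44) for 8 µM and 0.29 ± 0.13 (adjusted p = 0.33) for 200 µM.

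Over the 30 arrays the members did not share 1 pattern. Their highest pairwise Spearman correlations were 0.68 for Gclc and Hmox1, 0.62 for Gclm and Hmox1 and 0.61 for Nqo1 and Srxn1. The lowest were -0.55 for Gclc and Sod2 and -0.55 for Nqo1 and Hmox1. Nfe2l2 correlated with Nqo1 at 0.54, with Srxn1 at 0.54 and with Gclm at -0.34. These are descriptions of 30 wells that share their treatment groups and their array scaling. Of all genes tested, the one most like each member by the same measure was Ugdh for Gclc (0.90), Plin3 for Hmox1 (0.90), Asl for Srxn1 (0.92), Psmc1 for Sod2 (0.94) and Khk for Nqo1 (0.89). For the other members it was Fkbp11 for Nfe2l2 (0.83), Cox8a for Sod1 (0.89), Dtnbp1 for Gclm (0.80), Cep68 for Keap1 (0.69) and Arhgap32 for Txnrd1 (0.66).

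Of 11 other genes that control NRF2, 10 were tested. At 24 h 0 rose and 2 fell at each dose, and at 48 h 1 rose and 3 fell at each dose. Over all genes 11.1% rose and 13.8% fell at 8 µM and 24 h, 11.6% and 13.1% at 200 µM and 24 h, 16.7% and 18.9% at 8 µM and 48 h, and 16.8% and 17.1% at 200 µM and 48 h, the shares that the counts of this list and of the 4 lists after it stand against. Maff, a small MAF protein that pairs with NRF2, fell in all 4 treated groups, with a change of -0.76 ± 0.12 (adjusted p = 9.8e-06) at 8 µM and -0.92 ± 0.12 (adjusted p = 4.1e-07) at 200 µM at 24 h. At 48 h Maff fell, with a change of -0.63 ± 0.12 (adjusted p = 1.1e-04) at 8 µM and -0.82 ± 0.12 (adjusted p = 2.1e-06) at 200 µM. Mafg, another small MAF protein, fell at 48 h, with a change of -0.48 ± 0.11 (adjusted p = 5.5e-04) at 8 µM and -0.36 ± 0.11 (adjusted p = 0.009) at 200 µM, and at 200 µM and 24 h, with a change of -0.32 ± 0.11 (adjusted p = 0.025). Sqstm1, whose protein p62 can hold KEAP1 away from NRF2, fell at 8 µM and 24 h, with a change of -0.21 (adjusted p = 0.02) and at 48 h, with a change of -0.19 at 8 µM (adjusted p = 0.029) and -0.19 at 200 µM (adjusted p = 0.031). Rbx1, the ring subunit of the CUL3 ligase, was the member of this list that rose at 48 h, by 0.21 at 8 µM (adjusted p = 0.033) and 0.23 at 200 µM (adjusted p = 0.026). With 48 h vehicle replicate 4 left out, the 48 h counts of this list were 0 rises and 5 falls at each dose. The list medians were -0.09, -0.01, -0.19 and -0.18 for 8 µM at 24 h, 200 µM at 24 h, 8 µM at 48 h and 200 µM at 48 h.

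Of 25 further genes often listed as NRF2 targets, 18 were tested, and the other 7 had no probe set of their own in the annotation. They moved in both directions: 3 rose and 5 fell at each dose at 24 h, and at 48 h 6 rose and 4 fell at 8 µM and 4 rose and 2 fell at 200 µM, beside 11.1% to 16.8% of all genes that rose and 13.1% to 18.9% that fell. Me1, the cytosolic malic enzyme that makes NADPH, had the largest rises, 1.30 ± 0.11 (adjusted p = 2.2e-11) at 8 µM and 1.06 ± 0.11 (adjusted p = 3.1e-09) at 200 µM at 24 h. At 48 h Me1 rose by 2.00 ± 0.11 (adjusted p = 2.6e-16) at 8 µM and 1.58 ± 0.11 (adjusted p = 1.6e-13) at 200 µM. Me1 is also a known target of PPARα in rodents. Gsta4, a glutathione transferase that acts on lipid peroxidation products, rose by 0.47 at 8 µM (adjusted p = 2.0e-05) and 0.43 at 200 µM (adjusted p = 7.0e-05) at 24 h, and by 0.80 at 8 µM (adjusted p = 4.4e-10) and 0.80 at 200 µM (adjusted p = 5.2e-10) at 48 h. Pgd, of the pentose phosphate pathway, rose at 48 h by 0.56 at 8 µM (adjusted p = 3.6e-08) and 0.29 at 200 µM (adjusted p = 9.0e-04). Akr7a3, an aldehyde reductase that acts on aflatoxin, fell at 24 h, with a change of -0.65 at 8 µM (adjusted p = 4.8e-07) and -0.56 at 200 µM (adjusted p = 6.1e-06) and had -0.05 and -0.11 at 48 h. Leaving out 48 h vehicle replicate 4, the 48 h counts were 5 rises and 5 falls at 8 µM and 4 rises and 7 falls at 200 µM. The 48 h list medians were then 0.01 at 8 µM and -0.01 at 200 µM. The list medians were -0.03 and -0.02 at 24 h and 0.10 and 0.05 at 48 h, for 8 µM and 200 µM in each pair.

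All 28 genes of a list of other antioxidant and related genes were tested. Not all of them encode antioxidant enzymes. At 24 h 5 rose and 6 fell at 8 µM, and 6 rose and 6 fell at 200 µM. At 48 h 9 rose and 8 fell at each dose. The all-gene shares were 11.1% to 16.8% for rises and 13.1% to 18.9% for falls over the 4 treated groups. Txnip, the inhibitor of thioredoxin, had the largest rises of all lists, 2.20 ± 0.07 (adjusted p = 6.1e-23) at 8 µM and 2.15 ± 0.07 (adjusted p = 1.8e-22) at 200 µM at 24 h. At 48 h Txnip rose by 1.64 ± 0.07 (adjusted p = 8.8e-20) at 8 µM and 1.75 ± 0.07 (adjusted p = 2.4e-20) at 200 µM. Glrx, a glutaredoxin, rose in the 4 treated groups by 0.87 to 1.08. Sesn1, a sestrin, fell, with a change of -1.65 at 8 µM and -1.12 at 200 µM at 24 h, and with a change of -1.60 and -1.28 for these doses at 48 h. Gss, glutathione synthetase, which completes the pathway that Gclc opens, fell, with a change of -0.57 ± 0.08 (adjusted p = 1.1e-06) at 8 µM and -0.37 ± 0.08 (adjusted p = 5.5e-04) at 200 µM at 24 h, and with a change of -0.76 ± 0.08 (adjusted p = 2.4e-09) and -0.51 ± 0.08 (adjusted p = 5.1e-06) at 48 h. Every value given for Txnip, Glrx, Sesn1 and Gss passed the test. The list medians were -0.02 and -0.003 at 24 h and 0.06 and 0.07 at 48 h, for 8 µM and 200 µM in each pair. Without 48 h vehicle replicate 4 the 48 h medians were -0.04 at 8 µM and -0.02 at 200 µM. The 48 h counts were then 8 rises and 10 falls at 8 µM and 9 rises and 9 falls at 200 µM. Median centring changed the counts to 10 rises and 4 falls at 8 µM and 9 rises and 4 falls at 200 µM at 48 h. It moved the counts over all 11545 genes the same way. They were 2292 rises and 1121 falls at 8 µM, in place of 1928 and 2184. At 200 µM they were 2222 rises and 1030 falls, in place of 1936 and 1969.

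Among oxidases that make hydrogen peroxide, more fell than rose in every treated group. Of 11 listed, 8 were tested: 0 rose and 6 fell at 8 µM and 24 h, 0 rose and 7 fell at 200 µM and 24 h, 0 rose and 7 fell at 8 µM and 48 h, and 1 rose and 6 fell at 200 µM and 48 h, while 13.1% to 18.9% of all genes fell. Hao2, a hydroxyacid oxidase, fell, with a change of -2.33 ± 0.15 (adjusted p = 1.6e-14) at 8 µM and -1.97 ± 0.15 (adjusted p = 1.5e-12) at 200 µM at 24 h. At 48 h Hao2 fell, with a change of -3.26 ± 0.15 (adjusted p = 1.6e-18) at 8 µM and -2.50 ± 0.15 (adjusted p = 2.4e-15) at 200 µM. Hao1, which oxidises glycolate, fell at 24 h, with a change of -1.08 at 8 µM and -1.02 at 200 µM, and Acox2, a branched-chain and bile acid oxidase, with a change of -1.41 and -0.96. Uox, urate oxidase, fell, with a change of -0.54 ± 0.07 (adjusted p = 2.1e-07) at 8 µM and -0.88 ± 0.07 (adjusted p = 7.6e-12) at 200 µM at 24 h, and with a change of -0.32 ± 0.07 (adjusted p = 5.6e-04) and -0.62 ± 0.07 (adjusted p = 1.3e-08) at 48 h. The 1 call of a rise was Acox3, named after its value was seen. Its mean signal was 298 ± 85.7 in 200 µM wells and 104 ± 50.7 in vehicle wells at 48 h (SD, n = 5). The vehicle mean lies below the filter of 281, so no fold is given. The list medians were -0.75 and -0.88 at 24 h and -0.51 and -0.39 at 48 h, for 8 µM and 200 µM in each pair. With median centring 1 rose and 4 fell at 8 µM and 1 rose and 3 fell at 200 µM at 48 h. Of all 11545 genes 1121 then fell at 8 µM and 1030 at 200 µM, in place of 2184 and 1969. Leaving out 48 h vehicle replicate 4, 1 rose and 6 fell at each dose at 48 h. The 48 h medians were then -0.66 at 8 µM and -0.53 at 200 µM.

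Among genes of heme synthesis and handling, whose products feed or follow heme oxygenase, more rose than fell at 48 h. Of 11 listed, 10 were tested: 1 rose and 2 fell at 8 µM and 3 rose and 1 fell at 200 µM at 24 h, and 5 rose and 0 fell at 8 µM and 4 rose and 0 fell at 200 µM at 48 h. Of all genes 16.7% rose at 8 µM and 16.8% at 200 µM at 48 h, and 11.6% at 200 µM and 24 h. With median centring 0 rose and 1 fell at 200 µM and 24 h, while 1003 of all 11545 genes rose and 906 fell. Alas1, the first and rate-limiting enzyme of heme synthesis in liver, had -0.25 ± 0.08 (adjusted p = 0.029) at 8 µM and 0.23 ± 0.08 (adjusted p = 0.041) at 200 µM at 24 h. At 48 h Alas1 rose by 0.54 ± 0.08 (adjusted p = 3.1e-06) at 8 µM and 0.74 ± 0.08 (adjusted p = 1.2e-08) at 200 µM. Alad, the next enzyme, rose by 0.60 at 8 µM (adjusted p = 7.9e-06) and 0.29 at 200 µM (adjusted p = 0.026) at 24 h, and by 0.43 (adjusted p = 5.6e-04) and 0.28 (adjusted p = 0.026) at 48 h. Blvrb, a biliverdin reductase that is also in the list of NRF2 targets, rose at 48 h by 0.34 ± 0.07 (adjusted p = 1.0e-04) at 8 µM and 0.36 ± 0.07 (adjusted p = 5.0e-05) at 200 µM. Cpox, a late enzyme of heme synthesis, fell at 24 h, with a change of -0.52 ± 0.06 (adjusted p = 1.0e-08) at 8 µM and -0.37 ± 0.06 (adjusted p = 7.0e-06) at 200 µM. The list medians were 0.09 and 0.16 at 24 h and 0.32 and 0.25 at 48 h, for 8 µM and 200 µM in each pair. With 48 h vehicle replicate 4 left out, the 48 h counts were 5 rises and 1 fall at 8 µM and 4 rises and 0 falls at 200 µM, with medians of 0.22 and 0.13.

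**Figure D3:**
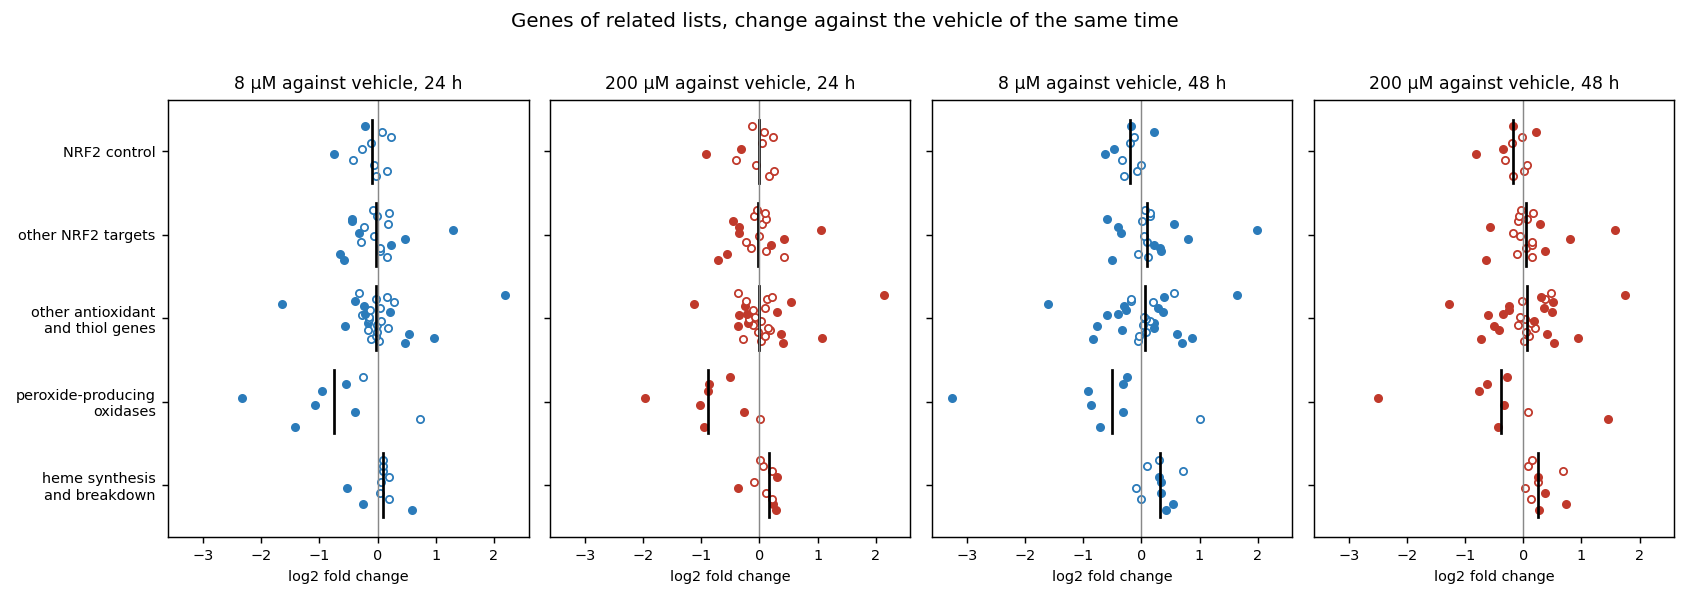
Log2 fold change against the vehicle of the same time (horizontal axis) for every tested gene of the 5 related lists (rows), in the 4 treated groups (panels). Filled points have an adjusted p below 0.05 and black lines are list medians. The oxidases lie mostly left of 0, the heme genes mostly right of 0 at 48 h, and the other NRF2 targets on both sides.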

How the data were processed

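The deposited values are intensity values: 1 linear signal per probe set and array, made by the authors with MAS5, per the submitters' processing notes. Its version, scaling target and chip definition are not given in the sources used here. The trimmed mean was 1500.45 to 1500.7 on all 30 arrays, so the arrays were already scaled, and no further scaling was applied. The number of arrays limits the precision: the median standard error between 2 groups was 0.124 on the log2 scale.

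Of 31099 probe sets 57 were controls. Of the rest, 20826 had 1 symbol, 436 several and 9780 none in the platform annotation. Probe sets above a signal of 281 (the 40th percentile) in at least 5 of the 30 arrays were kept, 21282 in all, of which 15629 had 1 symbol and gave 11545 genes. Log2(signal + 16) was fitted with 1 mean for each of 6 groups in limma 3.58.1 on R 4.3.3, using lmFit, contrasts.fit and then eBayes with trended variance. Tests were two-sided with Benjamini-Hochberg adjustment, and a Spearman correlation measured likeness. The code was tested on simulated data. Promoter windows are those of RefSeq.

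Members and lists were chosen with earlier results of these data known. All members are named. From each related list the 4 genes with the largest moderated statistic against vehicle are named, and others only as stated.

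Alternatives were leaving out each array, array weights, a fit of only the arrays compared, a block per run of 6 consecutive array numbers, averaging the probe sets of a gene, median centring, quantile normalization, pseudocounts of 1 and 64, and a filter at the 60th percentile or none. Quantile normalization without 48 h vehicle replicate 4 was added after seeing the data. Replicate numbers follow array order only.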

Additional observations from a re-analysis of the deposited data

Results flagged for a closer look

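In 3 of the 60 groups of 5 wells examined (10 genes in 6 groups), 1 well lay so far from its neighbours that the gap took up more than 0.71 of the group's range. Chance alone gives about 1 in 20 such groups. Nfe2l2 read 6352 in 48 h vehicle replicate 4, against 7392 to 7742 in the other 4 wells. Sod1 read 38953 in the same well, against 54791 to 61299 in the others. This is the array whose median signal stood apart. Nqo1 read 23819.9 in 200 µM replicate 3 at 24 h, against 21204 to 21914 in the other wells of its group. The effect of the compound differed between times for Gclc and Hmox1 by a test of the difference itself. For Gclc the effect at 48 h minus that at 24 h was 0.49 ± 0.10 (SE; limma, adjusted p = 0.0032) at 8 µM and 0.48 ± 0.10 (adjusted p = 0.0047) at 200 µM. For Hmox1 it was 0.68 ± 0.12 (adjusted p = 8.9e-04) at 8 µM and 0.65 ± 0.12 (adjusted p = 0.0021) at 200 µM. The Gclc values are those of its brighter probe set, and the dimmer one passed at neither dose.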

How the results depend on the processing

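Of 27 member changes called, 9 passed under all 41 alternatives and 18 were lost under at least 1, all 18 of them with median centring. None reversed, and except where a value shows it the cause was not tested. Median centring shifts each array by its own median, and that of 48 h vehicle replicate 4 stood apart, at 765 against 385 to 439. Standard errors were larger with it, for example 0.12 in place of 0.07 for Gclc at 8 µM and 24 h. Median centring was not run without that array, and the part of that array in these losses was not tested. Member counts below stand beside those of the deposited scaling. Median centring gave 1 (3) at 8 µM and 2 (4) at 200 µM at 24 h, 3 (5) at 8 µM and 2 (5) at 200 µM at 48 h, 0 (1) and 0 (2) between doses at 24 h and 48 h, 1 (3) in vehicle over time, and 0 (2) for the change between times at each dose. At 8 µM and 24 h the member count was 5 with quantile normalization, with only the arrays compared and with array weights, and 6 with quantile normalization without 48 h vehicle replicate 4. With only the arrays compared, which uses fewer arrays, it was 3 at 200 µM and 48 h, 1 between doses at 48 h and 1 in vehicle over time, where quantile normalization without 48 h vehicle replicate 4 also gave 1. Averaging the probe sets of each gene, the count was 1 for the change between times at 200 µM. Leaving out single arrays gave 1 to 2 members between doses at 48 h and 1 to 3 in vehicle over time. All-gene counts between doses at 24 h (349) were 91 with median centring, 594 with only the arrays compared, 750 with array weights, 735 with quantile normalization without that array and 244 to 676 with single arrays left out. Between doses at 48 h (553) they were 167, 263, 1146, 1104 and 398 to 1037 in the same order. In vehicle over time (1139) they were 583 with median centring and 342 with only the arrays compared. For the change between times at 8 µM (335) they were 541 with quantile normalization, 83 with median centring, 205 with only the arrays compared, 596 with array weights, 672 with quantile normalization without that array and 250 to 582 with single arrays left out. At 200 µM (278) they were 456, 50.0, 176, 528, 579 and 199 to 488 in the same order. The main fit did not pair wells by replicate number. Arrays of a run had a median correlation of deviations of 0.013 with each other, against -0.005 between runs. Of 30 arrays, 12 were closest to their own run. These values alone do not settle whether wells of a run are paired. With the replicate block per run the member counts stayed at 3, 4, 5, 5, 1, 2, 3, 2 and 2, in the order used here. The all-gene counts were all higher, by less than 1.5 times, for example 2913 at 8 µM and 24 h. The number of arrays limits small changes: member differences near 0.2 on the log2 scale passed or failed by single wells. Median centring shifts all genes of a contrast alike, by 0.03 at each dose at 24 h. By that shift alone the 24 h list medians near 0 of the NRF2 targets and the other antioxidant genes turned positive.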

Other observations

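By the rank of likeness over the 30 arrays, the next genes after the most alike were Fam107b (0.89) and Pik3c2g (0.86) for Gclc, and Acot9 (0.89) and Ddx39b (0.89) for Hmox1, as Spearman correlations. For Srxn1 they were Rnh1 (0.89) and Tmem37 (0.88), and for Sod2 Mrpl35 (0.91) and Rhod (0.87). Markers of other liver cells moved too, and their summed signals lay below that of the hepatocyte markers. The summed signal of 6 stellate cell markers, 4 of them above the filter, had medians of 2810.4, 2354 and 2026 for vehicle, 8 µM and 200 µM at 24 h, and 3257, 2614 and 2369 at 48 h. That of 4 endothelial markers had medians of 1946, 2092 and 1973 at 24 h and 1569, 1559 and 1287 at 48 h, in the same order. For 3 cholangiocyte markers with a probe set the medians were 9132, 7959 and 7018 at 24 h and 12377, 11174 and 9901 at 48 h. Their part in the members' results was not tested.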
